A study of Mus musculus with 8 samples.

Results

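Dorsal skin of knockout mice that received imiquimod cream followed by alloferon cream was compared with skin of the same genotype that received imiquimod without alloferon. The comparison has 3 of the 8 arrays of the study: the array titled KO_IMQ_Allo was set against the arrays titled KO_IMQ and KO_IMQ_B. Members were chosen by these titles alone. A gene was of interest where KO_IMQ_Allo read lower or higher than both other arrays, and the difference KO_IMQ_B minus KO_IMQ served as the yardstick of spread.

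The 8 arrays, all from male mice, were WT_CTRL and WT_IMQ from C57BL/6 mice, and KO_CTRL, KO_CTRL-B, KO_Allo, KO_IMQ, KO_IMQ_B and KO_IMQ_Allo from the strain B6.Cg-Il22ra1tm1.1Koll/J, which carries an altered allele of the IL-22 receptor alpha chain. Per the labels, 83.3 mg of Aldara cream with 5% imiquimod (IMQ) went on the back and ear each day from day 1 to day 7, with a cream of either vehicle or alloferon 6 hours afterwards. The series' design text gives 4 mice per group. The sources used here do not say if an array holds pooled RNA or what the letter B means, so KO_IMQ and KO_IMQ_B are counted as 2 replicates whose spread may be partly technical. From each skin sample, 100 ng of total RNA was labelled, and its expression is given as a log2 value, in which a step of 1 unit is a 2-fold difference.

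Imiquimod activates Toll-like receptor 7 on immune cells, and repeated application to mouse skin gives a redness, scaling and thickening used as a model of psoriasis. In that model neutrophils and macrophages enter the skin, T cells make IL-17 and IL-22, and keratinocytes respond with IL-36 cytokines, antimicrobial proteins and wound keratins. The IL-22 receptor alpha chain sits on keratinocytes and other epithelial cells, pairs with the IL-10 receptor beta chain to bind IL-22, and signals through STAT3. Alloferon is a peptide first isolated from insects and reported to stimulate natural killer cells and interferon production.

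Skin markers were high on the 3 arrays. Krt14, the keratin of basal keratinocytes, read 12.59 on KO_IMQ, 12.74 on KO_IMQ_B and 12.10 on KO_IMQ_Allo, and Krt1, Krt10, Lor, Flg and Col1a1 were likewise bright, whereas Krt5 was not matched to a probe set here. The transcript of the altered gene, Il22ra1, read 8.23 and 8.64 on the WT arrays and from 8.59 to 9.40 on the arrays labelled KO. It was therefore not lower on them, but whether its probes lie in the altered part of the gene is not given, so this value does not check the genotype. KO_IMQ and KO_IMQ_B differed in the level of hair genes. The median over 32 hair shaft genes was 5.14 on KO_IMQ, 7.20 on KO_IMQ_B and 5.98 on KO_IMQ_Allo. The arrays KO_CTRL and KO_CTRL-B also differed from each other. The same hair median was 6.44 on KO_CTRL and 9.94 on KO_CTRL-B, and the median over skeletal muscle genes was 10.81 and 8.36. KO_Allo stood apart from both. Krt6b, a wound keratin, read 4.67 on KO_CTRL and 7.49 on KO_CTRL-B but 11.83 on KO_Allo. Krt77 read 12.43, 11.47 and 8.60 in the same order.

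The cytokine Il1b lay furthest below both other arrays on KO_IMQ_Allo, 11.3-fold below their mean. By distance to the nearer array it was followed by the collagenase Mmp13, the acute-phase protein Saa3, the membrane proteases Tmprss11g and Tmprss11b and the prostaglandin synthase Ptgs2. By the same measure Cyp2b23, Skint9, Krt77 and Slurp2 lay furthest above. Of 22180 genes, 61 (0.275%) read lower and 42 (0.189%) higher than both arrays by a margin, the distance to the nearer array, of at least 1 log2 unit that also exceeded the yardstick. These are called lower and called higher here. Set against KO_IMQ_B alone the counts were 171 and 111, and against KO_IMQ alone 179 and 150, where a gene has to pass 1 array instead of 2. At any margin, 7825 genes (35.3%) were lower than both, 8030 (36.2%) were higher than both and 6325 lay between them. The median difference over all genes was 0.0039, the value to set beside the list medians below.

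The yardstick puts these counts in scale. The size of KO_IMQ_B minus KO_IMQ had a median of 0.14 log2 units and a 95th percentile of 0.58, and 203 genes differed by at least 1 between those arrays. KO_IMQ_Allo differed by at least 1 from KO_IMQ in 329 genes and from KO_IMQ_B in 282. With 1 array carrying the treatment, the difference has no replicate check on that side. In limma, a linear model with variances moderated across genes, 0 of 22180 genes (0%) passed a Benjamini-Hochberg adjusted p of 0.05 for 1 array against 2. The smallest adjusted p was 0.592, and 1813 genes had an unadjusted p under 0.05. The adjusted p from limma was also 0.592 for each of the 30 genes with the largest margins, so their values below are a description of these 3 arrays.

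**Figure D1:**
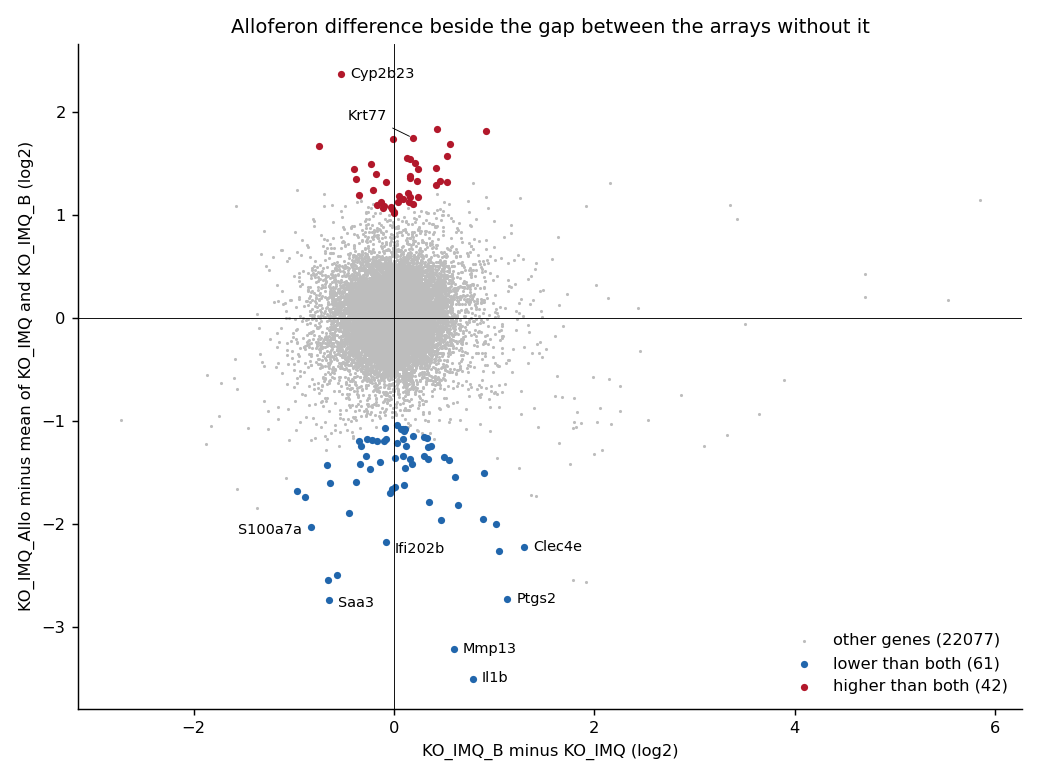
Each point is a gene, with KO_IMQ_B minus KO_IMQ on the x axis and KO_IMQ_Allo minus the mean of both on the y axis, in log2 units. The 61 genes called lower are blue and the 42 called higher are red, and Il1b and Mmp13 lie lowest. Some genes not called lie as low as called ones, such as Ccl3, at 1.92 on the x axis.

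Cytokines of the IL-1 family gave the lowest value. Il1b, the secreted inflammatory cytokine IL-1 beta, read 7.89 on KO_IMQ, 8.68 on KO_IMQ_B and 4.78 on KO_IMQ_Allo. The difference from the mean of the first 2 was -3.50 (limma SE 0.38), and even from the nearer array it was 8.62-fold. That level lay within the range of the untreated KO_CTRL and KO_CTRL-B arrays, which read 4.96 and 4.39. Il33, an alarmin held in the nuclei of epithelial and endothelial cells, read 9.39, 9.40 and 7.75 in the order KO_IMQ, KO_IMQ_B and KO_IMQ_Allo, a difference of -1.64 against a yardstick of 0.01.

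The other members of the 13-gene list of IL-1 and IL-36 family genes were closer together. Il1r1, the signalling receptor of IL-1, read 9.20, 9.21 and 8.27, a difference of -0.93 that missed the margin. The IL-36 cytokines, listed under the older symbols Il1f6 (IL-36 alpha), Il1f8 (beta) and Il1f9 (gamma), lay between the arrays without alloferon: Il1f6 read 10.29, 10.21 and 10.28. The differences were 0.03 for Il1f6, -0.01 for Il1f8 and -0.17 for Il1f9. Il1a was at -0.37, the receptor antagonist Il1rn at -0.34, Il18 at 0.54, the IL-36 receptor antagonist Il1f5 at 0.26, the decoy receptor Il1r2 at -0.12, the co-receptor Il1rap at -0.12 and the IL-36 receptor Il1rl2 at -0.01. In all, 2 of the 13 were called lower and 0 higher, 7 read lower than both and 2 higher, and the list's median difference was -0.12, or -0.32 against KO_IMQ and -0.02 against KO_IMQ_B.

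In the IL-22 receptor and IL-20 family, 0 of 11 members were called in either direction, and the median difference was -0.01. Il22ra1 itself read 8.88, 8.91 and 9.40, higher than both by 0.50. Il24 read 5.29, 5.30 and 4.38, and Socs3, the feedback inhibitor induced by STAT3, read 7.41, 7.08 and 6.39, so both were below the 2 arrays without alloferon. Il19 was below both as well, with a yardstick of -1.26 larger than its difference of -1.08. Receptor chains showed either sign: Il20ra differed by 0.85, the soluble IL-22 binding protein Il22ra2 by 0.57, Il20rb by 0.56 and Il10rb by -0.44. Stat3 was at -0.29, Il20 at 0.14 and Il22, at a level of 1.80 to 1.81 on the 3 arrays, at -0.01.

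The IL-23 and IL-17 axis gave no such difference. Il17a, a cytokine of T cells that acts on keratinocytes, read 4.81 on KO_IMQ, 4.11 on KO_IMQ_B and 4.51 on KO_IMQ_Allo, inside the gap of the other arrays. Il17f read 6.52, 5.75 and 6.56, and Il23a read 4.90, 4.69 and 4.58. The list's median level was 5.87, 5.38 and 5.62 in the same order, under the median of 6.05 over all genes. Of 11 members measured, 0 were called, 3 were higher than both, 2 lower and 6 between, with a median of 0.02. The chemokine Ccl20 differed by 0.42, Il23r by -0.33, Ccr6 by -0.23, Il12b by 0.13, Il17ra by -0.06, Il17c by 0.06, Il17rc by 0.02 and Il12rb1 by 0.02. The sign of this median depended on the array: it was -0.11 against KO_IMQ and 0.21 against KO_IMQ_B.

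Enzymes that cut or remodel the extracellular matrix were among the lowest genes. Mmp13, a collagenase, read 7.15, 7.74 and 4.23, a difference of -3.22. Mmp9, a gelatinase that neutrophils and macrophages carry, read 6.96, 7.97 and 5.46. The metalloproteinase inhibitor Timp1 (7.31, 7.17 and 5.84) and the matrix glycoprotein Tnc (10.89, 10.61 and 9.41) were called lower too, and Mmp3, at -1.06, missed the margin. Of 13 matrix remodelling genes, 4 were called lower, 11 were lower than both and 2 higher, with a median of -0.57. Over 22180 genes the shares lower and higher than both were near each other, as given above. Collagen and fibroblast genes gave smaller values: 9 of 13 were lower than both and 0 higher, the median was -0.23 (-0.11 against KO_IMQ and -0.24 against KO_IMQ_B), and Col3a1 read 12.06, 12.05 and 11.58.

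Enzymes of lipid mediator and histamine synthesis were also called lower. Ptgs2, the inducible cyclooxygenase that starts prostaglandin synthesis, read 7.68 on KO_IMQ, 8.81 on KO_IMQ_B and 5.51 on KO_IMQ_Allo. Its difference of -2.73 exceeded a wide yardstick of 1.13. The phospholipase Pla2g4d read 7.79, 7.45 and 6.20. These 2 were the members called among 14 prostaglandin and leukotriene genes, whose median was -0.13. Hdc, the enzyme that makes histamine, read 6.79, 7.26 and 5.06. Mast cell markers gave smaller differences with 0 of 10 called and 8 lower than both, such as Cma1 at 6.17, 6.43 and 5.46 and Cpa3 at 8.46, 8.47 and 7.91.

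Antimicrobial and acute-phase proteins of inflamed epidermis were lower on KO_IMQ_Allo in most cases. Saa3, an acute-phase serum amyloid A protein, read 10.93 on KO_IMQ, 10.28 on KO_IMQ_B and 7.87 on KO_IMQ_Allo. S100a7a, the mouse psoriasin, read 9.01, 8.18 and 6.56, and the beta-defensin Defb3 read 9.84, 8.95 and 7.66. These 3 were called of 16 measured, 11 were lower than both, 2 higher, and the median was -0.44. S100a7a was 0.99 lower on WT_IMQ than on WT_CTRL and read 8.64 on KO_CTRL-B, so it was not among the genes with high imiquimod values in the wild-type pair. Defb4 (-1.19) and Defb14 (-1.15) did not reach the margin.

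Markers of neutrophils and macrophages were also lower on KO_IMQ_Allo in most cases. Of 16 neutrophil markers, 4 were called lower, 13 were lower than both and 2 were higher than both. Clec4e, a lectin receptor of myeloid cells, read 6.12, 7.42 and 4.54, Clec4d read 6.57, 7.17 and 5.32, and Csf3r, the receptor for granulocyte colony-stimulating factor, read 8.50, 8.68 and 7.17. The fourth was Mmp9. The list median per array was 6.10 on KO_IMQ, 6.43 on KO_IMQ_B and 5.42 on KO_IMQ_Allo, against 4.84 and 5.08 on the KO_CTRL arrays. Of 16 monocyte and macrophage markers, 3 were called lower and 13 were lower than both. Arg1, arginase of activated macrophages, read 8.36, 9.25 and 7.30, the endotoxin co-receptor Cd14 read 7.36, 7.91 and 6.25, and the integrin Itgam read 10.05, 9.78 and 8.74. Their list medians were 8.55, 8.36 and 7.63, against 6.61 and 6.97 on the KO_CTRL arrays. In whole skin, fewer cells of a type and less RNA per cell cannot be told apart, and the part of these cells in the other differences was not tested.

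Other myeloid genes with large margins were Chil3, a chitinase-like protein of macrophages (6.50, 6.46 and 4.78), Ms4a6d (6.86, 6.97 and 5.29) and Ifi202b, an interferon-inducible DNA-binding protein (7.34, 7.25 and 5.12). Ifi202b differed by -2.18 against a yardstick of -0.08 and had the smallest p among all genes in limma. Chosen after their values were seen, the chemokine receptor Ccr1 read 5.80, 6.44 and 4.30, and the beta-glucan receptor Clec7a read 7.05, 7.05 and 5.69. Chemokines that draw neutrophils were low but uneven between the arrays without alloferon. Cxcl3 read 4.23, 5.27 and 2.48 and was called, at levels under the median of 6.05 over all genes. Ccl3 (6.47, 8.39 and 4.86) and Cxcl2 (6.36, 7.97 and 4.92) passed the margin of 1 but not the yardstick, and of 9 such chemoattractants 6 were lower than both and 3 higher. Among 14 monocyte and T cell chemokines, 0 were called and 8 were lower than both, with Ccl4 at -0.99.

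Toll-like receptors include the receptor family that imiquimod engages. Tlr1, part of the receptor for bacterial lipopeptides, read 7.59, 7.35 and 6.00, and Tlr13, a sensor of bacterial RNA, read 7.91, 8.01 and 6.78. With Cd14 they were the 3 called of 13 measured, 8 were lower than both and 2 higher, and the median was -0.57. Tlr8 read 8.48, 8.29 and 7.60, and Unc93b1, which carries the endosomal receptors to their compartment, read 9.62, 9.57 and 8.84. Complement genes were at a median of -0.52, with 1 of 8 called, the receptor C3ar1 (9.01, 8.92 and 7.89), and 6 lower than both.

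Lymphocyte lists lay nearer 0 than the myeloid ones. Of 13 T cell markers, 9 lay between the arrays without alloferon, 0 were called and the median was -0.05, with -0.08 against KO_IMQ and 0.16 against KO_IMQ_B. Cd3e read 7.42, 6.44 and 6.73, within the gap of the other arrays. Of 15 natural killer and cytotoxic genes, 0 were called, 8 were higher than both and 2 lower, with a median of 0.12 (0.07 against KO_IMQ and 0.16 against KO_IMQ_B). Ncr1, the receptor NKp46 that marks natural killer cells, read 4.69, 4.44 and 5.02, and the list medians were 4.37, 4.52 and 4.63. These levels lie under the median of 6.05 over all genes. B cell markers had a median of -0.15 (-0.02 against KO_IMQ_B) and dendritic and Langerhans cell markers 0.10, with 0 called in both lists.

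Interferon genes, named in the background on alloferon, were not called. Of 12 interferon and interferon receptor genes, 0 were called, 7 were lower than both and 3 higher, and the median was -0.09, or -0.19 against KO_IMQ and -0.07 against KO_IMQ_B. Ifna4 read 6.78, 6.47 and 7.15, and Ifnb1 read 4.11, 3.66 and 3.58. Of 21 genes of the type I interferon response, 16 were lower than both, 0 higher and 0 called, with a median of -0.30. That median was -0.12 against KO_IMQ and -0.44 against KO_IMQ_B. Oas2, an antiviral enzyme, read 7.61, 7.96 and 6.88. Ifi202b, the interferon-inducible gene given above, is outside this list and was called lower. Siglec1 (7.94, 8.28 and 6.74) and Trim30a (5.97, 6.31 and 4.88), also outside it, were called lower too. The interferon gamma response had a median of -0.11, with 7 of 19 lower and 3 higher than both, and Irgm1 read 6.21, 6.25 and 5.58.

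Injury-induced proteins of keratinocytes form the outer envelope of the cell in repairing skin. Of 24 injury-induced cornified envelope genes, 19 were lower than both, 3 higher and 1 was called lower. That gene, Csta3, a cystatin, read 10.32, 9.35 and 8.15, against 2.67 and 3.77 on the KO_CTRL arrays. Lce3a read 9.26, 8.58 and 7.63, and Sprr2e read 10.78, 9.32 and 8.98. The median was -0.53, and it was -0.71 against KO_IMQ and -0.27 against KO_IMQ_B. The wound keratins showed differences near that: Krt6a read 12.59, 12.64 and 11.87, Krt6b 12.66, 12.71 and 12.12, and Krt16 11.91, 11.99 and 11.43. None of these 3 keratins was called, and the fourth of the list, Krt17, was 0.24 higher than both.

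Proteases of the epidermal surface gave 2 of the lowest values. Tmprss11g and Tmprss11b are membrane serine proteases of a cluster of similar genes, which may share probe sequence. Tmprss11g read 9.51, 8.85 and 6.63, and Tmprss11b read 8.91, 8.34 and 6.12. Klk14, a kallikrein of the cornified layer, read 7.58, 8.08 and 6.48 and was called lower too. The list of 19 proteases and inhibitors does not hold all of these genes. Of its members, 2 were called lower, 8 were lower than both and 5 higher. The list's median was -0.13, with 0.02 against KO_IMQ and -0.24 against KO_IMQ_B. Gsta4, a glutathione transferase that clears products of lipid oxidation, read 9.34, 8.89 and 7.21. Epgn, a ligand of the EGF receptor, read 8.87, 8.49 and 7.09, whereas Ereg, another ligand, read 9.93, 9.29 and 10.33.

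**Figure D2:**
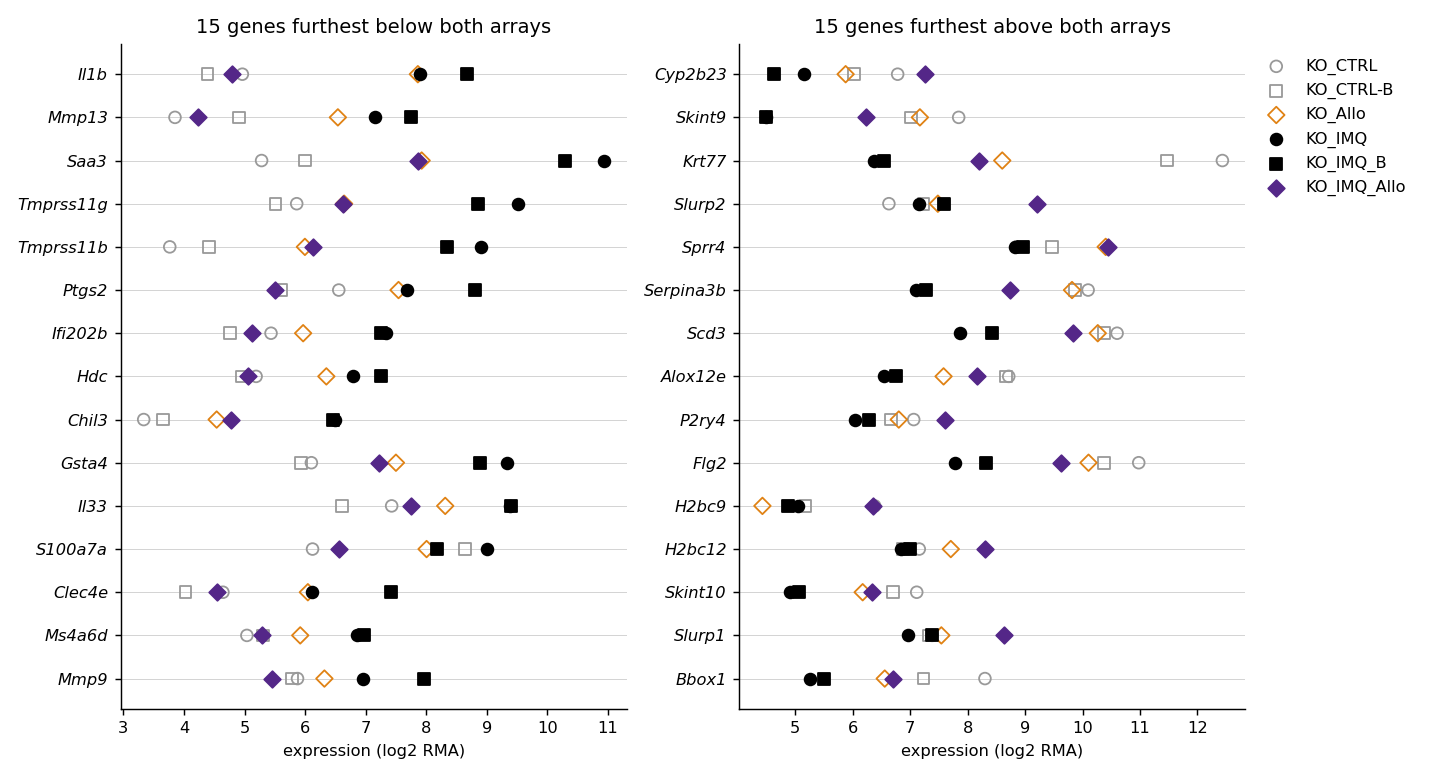
Log2 expression of the 15 genes furthest below and the 15 furthest above both arrays, with a point for each of the 6 knockout arrays. Il1b on KO_IMQ_Allo (4.78) lies among the KO_CTRL points, whereas Krt77 (8.21) lies between KO_IMQ and KO_CTRL.

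Genes of resting epidermis were higher on KO_IMQ_Allo in most cases. Krt77, a keratin of the suprabasal epidermis, read 6.36 on KO_IMQ, 6.55 on KO_IMQ_B and 8.21 on KO_IMQ_Allo, far below the 12.43 and 11.47 of the KO_CTRL arrays. Flg2, filaggrin-2 of the cornified layer, read 7.79, 8.32 and 9.62. These 2 were the members called among 23 homeostatic differentiation genes, of which 18 were higher than both and 1 lower, with a median of 0.26. The list's median level was 10.32, 10.63 and 11.02 in the same order, against 10.49 and 10.52 on the KO_CTRL arrays. In the wild-type pair its median difference with imiquimod was 0.93, whereas Krt77 and Flg2 differed by -5.72 and -1.84. These 2 genes thus do not stand for the list. Lor, the main cornified envelope protein, read 9.95, 10.63 and 11.02. Basal epidermis genes showed no common direction, with a median of -0.02 over 7 genes.

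The Skint genes encode membrane proteins of keratinocytes, and Skint1 selects the gamma-delta T cells that reside in mouse epidermis. Of 11 members, 5 were called higher, 10 were higher than both and the median difference was 1.20, the highest of the 47 lists. Skint9 read 4.50, 4.49 and 6.23, Skint10 read 4.91, 5.06 and 6.34, and Skint11 read 6.88, 7.41 and 8.46. Named after their values were seen, Skint1 read 8.83, 8.62 and 9.83, a margin of 0.9976 just under 1, and Skint7 was the exception, at 5.33, 4.95 and 4.15. Skint5 (2.68, 1.93 and 3.97) and Skint6 (3.50, 3.10 and 4.74) were called at low levels. The members are similar in sequence, so their probe sets may not be independent.

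Sebaceous glands make the surface lipids of skin. Scd3, a stearoyl-CoA desaturase of sebaceous glands, read 7.87, 8.43 and 9.84. It was the member called among 19 sebaceous gland and skin lipid genes, of which 14 were higher than both and 1 lower, with a median of 0.57. Awat1, which makes wax esters in sebocytes, read 8.77, 8.73 and 9.65, and Krt79, a keratin of the sebaceous duct, read 10.89, 10.97 and 11.78. Alox12e, an epidermal lipoxygenase, read 6.55, 6.76 and 8.16. Cyp2b23, a cytochrome P450, read 5.16, 4.62 and 7.25, the largest margin in the upward direction. Barrier lipid genes differed less, with 8 of 14 higher than both, 0 called and a median of 0.15 (0.05 against KO_IMQ and 0.23 against KO_IMQ_B).

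Further genes of the upper group include Slurp2 and Slurp1, secreted proteins of the Ly6 family made by keratinocytes. Slurp2 read 7.16, 7.59 and 9.20, and Slurp1 read 6.96, 7.38 and 8.63. Both exceeded every KO_CTRL value, which were 6.63 and 7.23 for Slurp2 and 7.38 and 7.33 for Slurp1. Sprr4, a small proline-rich envelope protein, read 8.83, 8.96 and 10.44, Serpina3b read 7.11, 7.27 and 8.73, and the purinergic receptor P2ry4 read 6.04, 6.28 and 7.60. Bbox1, the last enzyme of carnitine synthesis, read 5.26, 5.49 and 6.70. The histone genes H2bc9 (5.05, 4.87 and 6.35) and H2bc12 (6.84, 7.00 and 8.30) belong to a family of near-identical copies whose probes may not tell members apart. Cell cycle genes gave a median of 0.07 (0.20 against KO_IMQ and -0.09 against KO_IMQ_B), with 17 of 23 between the other arrays and 0 called.

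Most hair genes could not be read against this yardstick. Of 32 hair shaft and inner root sheath genes, 27 lay between KO_IMQ and KO_IMQ_B, 5 were lower than both and 0 higher. Of these, 1 was called lower, Dsc2, which read 8.35, 8.45 and 7.30 with a yardstick of 0.10. Krt71, an inner root sheath keratin, read 4.59, 10.44 and 8.66. The list's median was 0.47 against KO_IMQ and -1.06 against KO_IMQ_B, opposite in sign. Melanocyte genes also gave opposite signs, at 0.82 and -0.19. Regulators of the hair follicle were at 0.35 (0.62 against KO_IMQ and 0.08 against KO_IMQ_B), with 11 of 20 higher than both and Bmp4 at 5.47, 6.39 and 7.11. Skeletal muscle genes were at -0.35 (-0.55 against KO_IMQ and -0.13 against KO_IMQ_B) with 13 of 19 lower than both. Endothelial genes were at -0.46 with 8 of 10 lower than both, Selp reading 7.71, 7.02 and 6.21. Their part in the called genes was not tested.

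The remaining lists had few calls. Type 2 cytokine genes had a median of -0.07 (-0.14 against KO_IMQ_B) with 2 of 13 called lower, Il33 and the receptor chain Il4ra (9.27, 9.46 and 8.22). EGF receptor ligands were at -0.04 with Epgn called, and none was called in the lists that follow. The medians were -0.20 for NF-kB feedback and for gasdermins, -0.17 for oxidative stress genes, -0.06 for immediate early genes, -0.05 for checkpoint genes and 0.12 for adipocyte genes. Schwann cell markers were at -0.01 over 6 genes, and 1 red blood cell gene, Slc4a1, was at -0.18. Against KO_IMQ and KO_IMQ_B apart, NF-kB feedback genes were at -0.34 and -0.0033, gasdermins at -0.13 and -0.22, and checkpoint genes at -0.18 and -0.01. In the same order adipocyte genes were at -0.05 and 0.23, Schwann cell markers at -0.06 and 0.04, and Slc4a1 at 0.04 and -0.40.

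**Figure D3:**
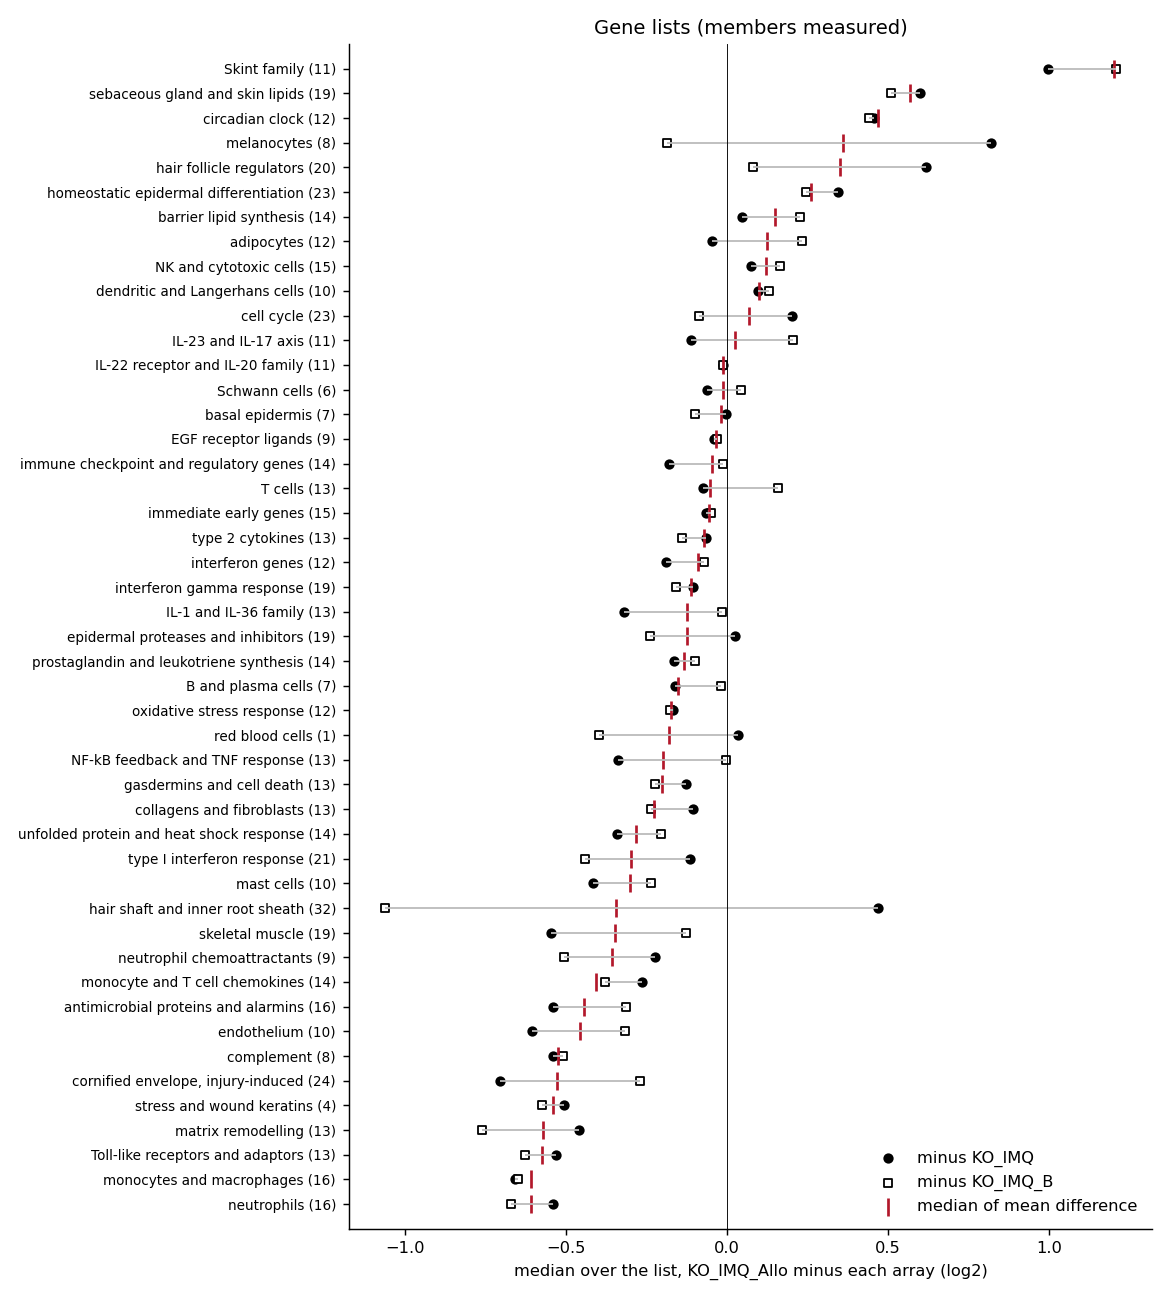
Median over each gene list of KO_IMQ_Allo minus KO_IMQ and minus KO_IMQ_B (log2, x axis), a red tick for the median of the mean difference, and the number of members measured. The Skint family (1.00 and 1.21) lies furthest to the right, and the 2 points of the hair shaft list (0.47 and -1.06) lie on opposite sides of 0.

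Promoter sequences are shown for 3 genes of the lower and upper groups because they hold a match to a short motif within 250 bases before the gene's start, in RefSeq on GRCm38.p6. Capitals mark the match. Mmp13 lies on the plus strand, at chr9:7272264-7272513, and its AP-1 letters lie 35 bases before the start. Ptgs2, at chr1:150099781-150100030 on the plus strand, has C/EBP letters 69 bases before the start. Flg2, at chr3:93197023-93197272 on the plus strand, has AP-1 letters 69 and C/EBP letters 147 bases before it.
Mmp13: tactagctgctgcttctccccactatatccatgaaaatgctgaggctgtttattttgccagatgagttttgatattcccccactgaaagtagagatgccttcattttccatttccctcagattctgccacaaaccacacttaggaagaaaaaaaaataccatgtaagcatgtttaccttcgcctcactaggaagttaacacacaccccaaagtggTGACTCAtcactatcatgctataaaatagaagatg
Ptgs2: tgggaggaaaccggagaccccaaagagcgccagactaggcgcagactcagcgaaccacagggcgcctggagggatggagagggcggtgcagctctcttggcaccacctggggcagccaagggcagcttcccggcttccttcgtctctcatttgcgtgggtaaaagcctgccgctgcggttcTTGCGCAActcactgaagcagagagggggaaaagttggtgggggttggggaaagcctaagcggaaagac
Flg2: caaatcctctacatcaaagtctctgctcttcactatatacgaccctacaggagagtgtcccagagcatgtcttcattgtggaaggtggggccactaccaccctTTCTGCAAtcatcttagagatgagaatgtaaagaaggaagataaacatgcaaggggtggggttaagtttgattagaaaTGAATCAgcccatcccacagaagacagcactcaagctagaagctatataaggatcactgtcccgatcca

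Over all called genes, windows from 250 bases before to 50 after the start were searched on both strands. RefSeq windows were found for 46 of the 61 lower genes (53 windows) and 36 of the 42 higher genes (37 windows). The AP-1 motif TGANTCA was in 11.3% of the windows of lower genes, 24.3% of those of higher genes and 7.81% of all 32851 windows. The C/EBP motif TTGCNNAA was in 18.9%, 21.6% and 10.8%, the STAT motif TTCNNNGAA in 13.2%, 8.11% and 8.3%, and the NF-kB motif in 9.43%, 8.11% and 8.46%. The motifs were not made to exclude each other. A match is a description of letters and was not tested as a binding site.

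The wild-type pair, which shares no array with the comparison, gives the genes that differed with imiquimod alone. On WT_IMQ, 555 genes (2.5%) were at least 1 log2 unit higher than on WT_CTRL and 470 (2.12%) at least 1 lower, with 1 array a group and no replicate check. Of the 555, 389 (70.1%) were lower than both arrays on KO_IMQ_Allo and 90 (16.2%) higher, and the median difference was -0.41. Of the 61 genes called lower, 42 were in this set, which holds 2.5% of all genes, among them Il1b, Mmp13 and Saa3, which were 3.63, 2.73 and 4.77 higher on WT_IMQ. Of the 470 genes lower on WT_IMQ, 133 (28.3%) were lower than both and 140 (29.8%) higher, with a median of -0.03. Among the 124 of them that were at least 2 log2 units lower on WT_IMQ, 33.9% were lower than both and 12.1% higher, with a median of -0.32. Of the 42 genes called higher, 15 were among the 470, including Krt77, Scd3 and Flg2, and 3 were among the 555.

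**Figure D4:**
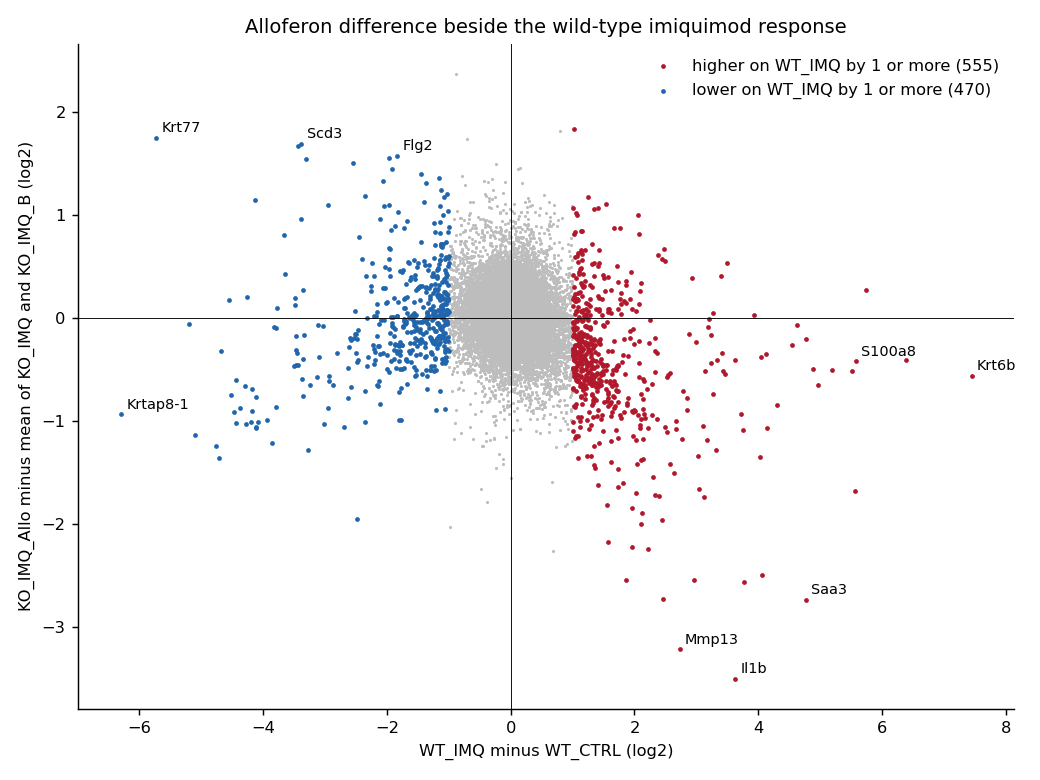
WT_IMQ minus WT_CTRL (x axis) against KO_IMQ_Allo minus the mean of KO_IMQ and KO_IMQ_B (y axis), both in log2 units, a point per gene. Most of the 555 red genes on the right lie below 0, with a median of -0.41, while the 470 blue genes on the left spread to both sides.

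The levels of KO_IMQ_Allo were also set beside the KO_CTRL arrays. The genes were chosen by the values of KO_IMQ_Allo, KO_IMQ and KO_IMQ_B, so the counts below are not independent of that choice. Of the 61 genes called lower, 51 had both KO_IMQ arrays above both KO_CTRL arrays, against 22.4% of all genes. KO_IMQ_Allo was still above both KO_CTRL arrays in 30 of the 61, between them in 13 and below them in 18. Over all genes these shares were 34.9%, 31.1% and 34%, so the count below is near the background. Saa3 belongs to the first kind, with 5.28 and 6.00 on the KO_CTRL arrays against 7.87, and Ptgs2 to the last, with 6.56 and 5.60 against 5.51. Of the 42 genes called higher, 26 had both KO_IMQ arrays below both KO_CTRL arrays, against 22.3% of all genes. KO_IMQ_Allo was below both in 10 of the 42, lay between them in 8 and was above both in 24, where the shares over all genes are those just given. Both groups hold dim genes, and the counts of this paragraph were not repeated without them. A filter on dim genes kept 51 of the 61 and 29 of the 42. The rule for naming genes, which also leaves out symbols such as olfactory receptors, kept 48 and 27. Olfr365, called higher, read 2.48 on KO_IMQ, 2.45 on KO_IMQ_B and 3.54 on KO_IMQ_Allo.

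Alloferon without imiquimod was measured on KO_Allo, which was set against KO_CTRL and KO_CTRL-B. That array stood apart from the KO_CTRL arrays, as given for Krt6b and Krt77, and was above both in 431 of the 555 genes that were high on WT_IMQ. KO_Allo was above both KO_CTRL arrays in 42 of the 61 genes called lower, against 32.4% of all genes, and below both in 6, with a median difference of 0.68. Il1b read 7.86 on KO_Allo, near the 7.89 of KO_IMQ, and Mmp13 read 6.54 against 3.85 and 4.91 on the KO_CTRL arrays. Of the 42 genes called higher, 18 were above and 16 below both KO_CTRL arrays, against 30.7% of all genes below both. The limma interaction, which asks whether the alloferon difference with imiquimod departs from that without it, passed for 0 of 22180 genes (0%). Its smallest adjusted p was 0.351, for Sprr1b, and 1212 genes had an unadjusted p under 0.05.

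**Figure D5:**
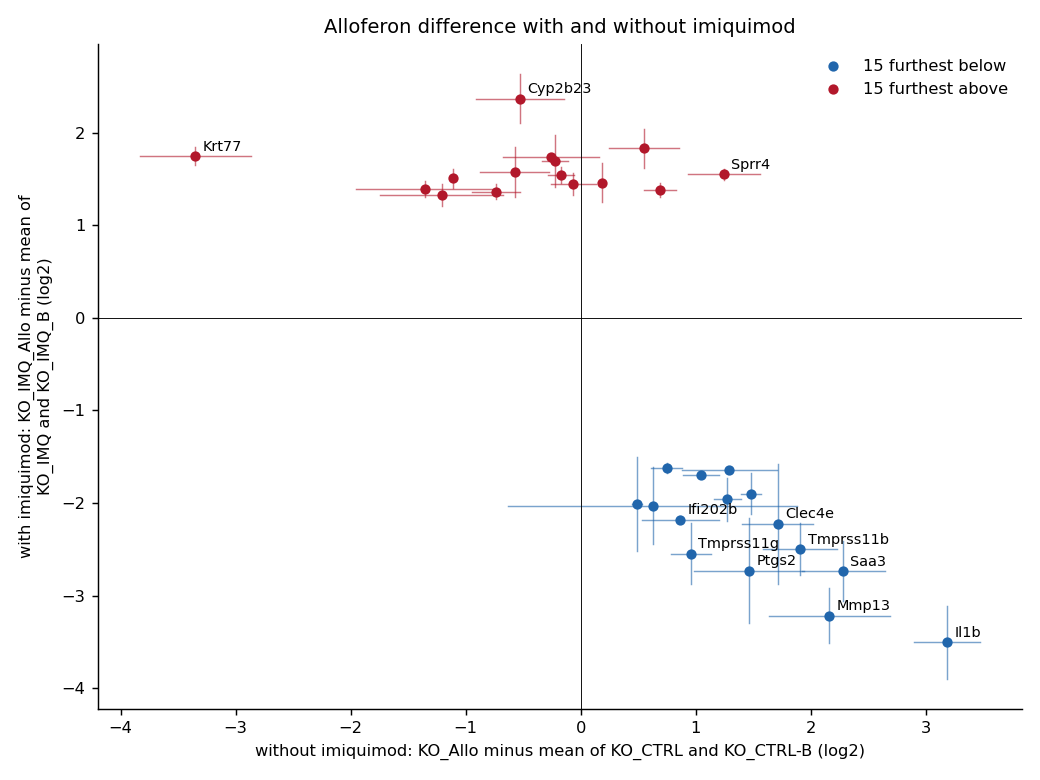
For the 30 named genes, the alloferon difference without imiquimod (x axis, KO_Allo minus the mean of the KO_CTRL arrays) and with it (y axis, KO_IMQ_Allo minus the mean of KO_IMQ and KO_IMQ_B), both in log2 units, with bars from the difference against each of the 2 arrays. Il1b lies at 3.19 on the x axis and -3.50 on the y axis.

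At the threshold itself the groups ran on without a gap. Hacd1, at a margin of -1.0088, was just inside the lower group, and Clec12a (-0.985) and Odc1 (-0.982) were just outside. Serpina3j, at 1.0043, was just inside the upper group, and Fcgbp, at 0.9968, just outside. Besides Ccl3 and Cxcl2, the genes Acod1, Coch, Prg4, Slfn4 and Sprr2j-ps passed the margin in the lower direction but not their own yardstick.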

How the data were processed

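The authors deposited log2 values of 41345 probe sets on 8 arrays, normalised by RMA (robust multi-array average). The submitters' processing notes name Affymetrix Power Tools and, with no stated use, R 3.3.2. RMA puts all arrays on a common distribution, compresses differences of dim genes and removes a shift shared by most genes. Array medians over genes differed by at most 0.0597. The number of arrays limits the precision.

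Of the probe sets, 23521 had 1 gene symbol, 1814 several and 16010 none, per the platform annotation. A gene with several sets (1082 genes) took the one with the highest mean, which gave 22180 genes. No array pair held identical values. Differences were tested with limma 3.58.1 in R 4.3.3 on the 3 arrays (1 residual degree of freedom) and, for the interaction, on the 6 knockout arrays (2 residual degrees of freedom), with Benjamini-Hochberg adjustment over all genes. The code was tested on simulated data. The p-values rest on the spread among these arrays alone.

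Named genes are the 15 with the largest margin in each direction among called genes whose higher side lies above the median level of all genes, leaving out clone-type symbols, predicted genes, olfactory receptors, small RNA genes and receptor segments. Added were up to 5 members of each of 47 gene lists by size of difference, and every member of the IL-1, IL-22 receptor and IL-17 lists. The members and lists were chosen with earlier results of these data known. Alternatives were other margins, no yardstick, a filter on dim genes, the mean of probe sets, centred arrays, other limma priors and arrays, the letter B as a term, and leaving out replicates. The sources used here do not give the array's genome build.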

Additional observations from a re-analysis of the deposited data

Results flagged for a closer look

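In 9 of 30 named genes the alloferon difference without imiquimod ran opposite to that with imiquimod, with KO_Allo beyond both KO_CTRL arrays by at least 1 log2 unit. The share of all genes for which KO_Allo lay that far beyond both was not counted. Some named genes ran the same way, such as Sprr4, at 1.24 without imiquimod and 1.55 with it. The difference between the 2 effects, as the limma interaction, was -6.69 for Il1b, -5.38 for Mmp13, -5.02 for Saa3, -4.41 for Tmprss11b, -3.94 for Clec4e, -3.38 for Gsta4 and -3.24 for Hdc. In the other direction it was 5.10 for Krt77 and 2.62 for Alox12e. The interaction passed for none of these 9: the adjusted p from limma lay between 0.521 and 0.727. KO_Allo and KO_IMQ_Allo are single arrays, and KO_Allo read higher than both KO_CTRL arrays in 431 of the 555 genes that were high on WT_IMQ. The part of that array in the 9 values was not tested.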

How the results depend on the processing

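The called genes depend on the size of the margin. At 1.5-fold, 288 were lower and 295 higher, and at 2 log2 units 7 and 1. Without KO_IMQ replicate 1 or 2, which leaves 1 array against 1, the lower count ranged from 171 to 179 and the higher count from 111 to 150; by construction these hold the 61 and 42 genes. The filter on dim genes (51 and 29), centred arrays (62 and 40), the mean of probe sets (61 and 42) and no yardstick (68 and 42) changed less. The mean of probe sets could not change the called genes, each of which has 1 probe set. The share of lower calls was 59.2% and ranged from 54.4% to 63.8%, but was 49.4% at 1.5-fold and 87.5% at 2 log2 units. limma called 0 genes in 8 alternatives of the main comparison (smallest adjusted p from 0.308 to 1, 664 to 1945 genes at an unadjusted p under 0.05) and in 9 of the interaction (0.126 to 0.963, 667 to 2412 genes). In the main comparison, the fit on all 8 arrays repeats that on the 6 knockout arrays, since single wild-type arrays add no spread. Where genes were chosen at 2 log2 units in the wild-type pair, the median of the genes high on WT_IMQ was -0.70. Of the genes low on WT_IMQ, 12.1% were higher and 33.9% lower than both, with a median of -0.32. Without a replicate, 20.4% to 25.8% of the genes high on WT_IMQ read higher, 40.9% to 57.7% of the genes low on WT_IMQ read lower and 42.3% to 58.9% of them higher, since a gene cannot lie between 2 arrays when 1 is left. List medians stayed within the spread in 216 values, and 18 values of 14 lists moved. The sign differed between settings for 10 lists: IL-23 and IL-17, T cells, hair shaft, melanocytes, adipocytes, cell cycle, Schwann cells, red blood cells, checkpoint genes and epidermal proteases. The labels carry no replicate numbers, and the letter B, fitted as a term in the interaction, left 0 genes called (smallest adjusted p from limma 0.247, 1473 genes at an unadjusted p under 0.05).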

Other observations

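Circadian clock genes were higher on KO_IMQ_Allo in 9 of 12 measured, lower than both in 2 and between in 1, with a median difference of 0.47 and 0 called. Per3 read 6.48 on KO_IMQ, 6.74 on KO_IMQ_B and 7.44 on KO_IMQ_Allo, and Nr1d1, a repressor of the clock, read 8.29, 8.11 and 8.80. The sources used here do not give the hour of sampling. KO_Allo read 7.55 for Per3, against 6.94 and 7.08 on the KO_CTRL arrays.

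Genes of the unfolded protein and heat shock response were lower than both in 10 of 14 and between in 4, with a median of -0.28 and 0 called. Hspa5, the main chaperone of the endoplasmic reticulum, read 9.35, 8.76 and 8.52, a value below both by less than the gap between them.

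Of 16010 probe sets without a gene symbol, 134 (0.837%) were lower and 124 (0.775%) higher than both arrays by the same rule.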
